A study of Mus musculus with 10 samples.

Results

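The endothelial identity genes are 9 genes by which the cells lining blood vessels are usually recognised: Pecam1, Cdh5, Esam, Cldn5, Emcn, Egfl7, Aqp1, Eng and Robo4. They were taken by symbol from the array annotation, and all 9 were found among the 22180 genes measured. Each had exactly 1 probe set carrying its symbol alone, and that probe set stood for the gene. A further probe set named for both Egfl7 and the microRNA gene Mir126a was not used. Taking the genes by symbol used no measured value, but the members were chosen with earlier results of these data known.

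The samples were plantaris muscles of male C57BL/6 mice, with the age not given in the sources used here. The plantaris, a small ankle extensor of the hindlimb, was overloaded by ablation of its synergist muscles, a surgical model of muscle growth. The 5 groups were muscle without overload, overload for 3 d, overload for 3 d with a PDGF inhibitor, overload for 10 d, and overload for 10 d with the inhibitor. The inhibitor, its dose and its route are not named in the labels used here. Each group had 2 samples, and each sample was RNA pooled in equal amounts from 4 muscles and read on 1 Affymetrix Mouse Gene 2.1 ST array. No group combined the inhibitor with an absence of overload, so an inhibitor effect could be measured only in overloaded muscle. Whole muscle was measured, so fewer endothelial cells and less RNA per endothelial cell cannot be told apart in any value given here.

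Endothelial cells form the inner wall of every vessel, and in skeletal muscle most of them lie in the capillaries that run along the fibres. They hold together through adherens and tight junctions, present a glycoprotein-rich surface to the blood, and carry channels and receptors for water and for guidance and growth signals. The genes below follow those roles. Several are also made elsewhere: Pecam1 and Esam by platelets, Pecam1 by leukocytes as well, Aqp1 by red cells and Eng by activated macrophages and stromal cells.

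The promoters of Aqp1, Eng and Cldn5 are shown because Aqp1 and Eng were the members that passed the test in a comparison, and Cldn5 had the widest range between groups. The sequences are RefSeq windows of 250 bases upstream of the annotated start, build GRCm38.p6, all on the plus strand. Capitals mark GGAA or its reverse complement TTCC, the core letters bound by ETS factors, the family of Erg and Fli1.
Aqp1, chr6:55336049-55336298: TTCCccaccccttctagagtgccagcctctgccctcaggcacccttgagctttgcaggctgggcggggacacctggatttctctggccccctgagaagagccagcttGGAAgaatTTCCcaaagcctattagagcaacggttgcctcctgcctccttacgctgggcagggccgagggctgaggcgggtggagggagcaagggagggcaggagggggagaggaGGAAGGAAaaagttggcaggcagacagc
Eng, chr2:32646345-32646594: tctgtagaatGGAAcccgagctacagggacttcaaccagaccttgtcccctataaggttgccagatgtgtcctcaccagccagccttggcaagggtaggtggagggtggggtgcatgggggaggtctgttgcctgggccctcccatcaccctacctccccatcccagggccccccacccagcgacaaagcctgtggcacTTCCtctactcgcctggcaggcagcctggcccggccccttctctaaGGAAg
Cldn5, chr16:18776597-18776846: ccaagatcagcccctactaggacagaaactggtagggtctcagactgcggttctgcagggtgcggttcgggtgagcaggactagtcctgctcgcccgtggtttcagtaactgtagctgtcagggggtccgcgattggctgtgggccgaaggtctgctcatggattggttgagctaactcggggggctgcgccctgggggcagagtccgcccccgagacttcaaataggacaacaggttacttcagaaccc
The Aqp1 window held 5 matches to GGAA counted on both strands, the Eng window 3 and the Cldn5 window 0. Of 32851 promoter windows of the same length, 93.4% held at least 1 match and the median was 3. None of the 3 windows held the longer ETS letters CAGGAA, which contain GGAA and were present in 25.7% of all windows. The SOX-type letters AACAAT (9.4% of all windows), the GATA-type letters AGATAA (10.0%) and the TATA box letters TATAAA (12.4%) also had no match in these windows. The GC content was 62.0% for Aqp1, 62.4% for Eng and 59.6% for Cldn5, against a median of 52.4% over all windows. RefSeq windows were matched for 6 of the 9 genes, 8 windows in all. In the other matched genes CAGGAA occurred in windows of Emcn, Egfl7 and Robo4, and AACAAT in that of Emcn. A match describes letters and is not a measured binding site.

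Values are log2 expression levels after RMA (robust multi-array average), as deposited, and 1 log2 unit is a 2-fold difference. Changes are differences of group means with the standard error of the limma fit over all 10 arrays. A change was called where the Benjamini-Hochberg adjusted p, taken over all 22180 genes, was under 0.05. In counts of gene lists, genes that rose or fell are those called higher or lower. Groups are called apart where both pools of one lie beyond both pools of the other. The 2 pools of a group correlated at 0.9893 to 0.9922 (Pearson r across genes). The first 10 d overload pool was nearest to a pool of the 10 d inhibitor group (0.9894), not to its partner (0.9893). One 3 d overload pool stood apart in immune precursor genes. Its neutrophil elastase gene Elane was at 5.21 and Mpo at 5.02, against 1.37 and 1.33 in its partner. The call of Aqp1 below is therefore also given without each 3 d pool.

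The muscle fibre markers were bright in every array, with a median level between 11.52 and 11.85. The other marker lists show how the surrounding cells moved. All 10 macrophage and monocyte markers were called higher at 3 d against no overload, when 17.5% of all genes were called. At 10 d all 10 changes were positive and 8 were called, when 5.13% of all genes were called. Their list score, the median over the markers after centring each on its own average, was -2.03 and -1.72 without overload, 1.54 and 1.21 at 3 d, and -0.19 and 0.32 at 10 d. All 7 measured markers of dividing cells rose at both times. Of 9 fibroblast markers, 4 were called higher and 1 lower at 3 d (55.6%, beside 17.5% of all genes). At 10 d all 9 changes were positive and 7 were called (77.8%, beside 5.13%). Of 12 pericyte and smooth muscle markers, 2 rose and 1 fell at 3 d (25.0%, beside 17.5% of all genes) and 1 rose at 10 d (8.33%, beside 5.13%). Single genes were called among 8 neutrophil markers (Csf3r) and 8 measured platelet markers (Pf4), both higher at 3 d. Each was 12.5% of its list, below the 17.5% of all genes. At 3 d all 8 neutrophil changes were positive (median 1.54), but the list score was 1.87 in the first pool and -0.58 in the second. The platelet median at 3 d was -0.35, with 5 of the 8 changes negative. Of the red cell markers 3 of 12 were measured and 0 were called by limma at 3 d or 10 d, so red cell RNA was hardly covered beside Aqp1. The part of these cells in the endothelial values was not tested.

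Pecam1 encodes CD31, an adhesion molecule at the contacts between endothelial cells, and was read by probe set 17270937. Its levels were 7.95 and 7.96 without overload, 8.23 and 8.08 at 3 d, and 8.64 and 8.38 at 10 d. With the inhibitor they were 8.32 and 8.30 at 3 d and 8.19 and 8.18 at 10 d. Every overloaded pool lay above both pools without overload, and the 10 d overload pools lay above those of all other groups. The change at 10 d against no overload was 0.56 ± 0.14 (1.47-fold higher, 95% interval 0.24 to 0.87) and missed the threshold (limma, adjusted p = 0.0556). Pecam1 is also a leukocyte and platelet gene. The macrophage list was higher in every overloaded group than without overload, and higher at 3 d than at 10 d of overload. The group means of Pecam1 were 8.16 at 3 d and 8.51 at 10 d of overload. The part of leukocytes and platelets in Pecam1 was not tested.

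Cdh5 encodes VE-cadherin, the adhesive core of the endothelial adherens junction (probe set 17504399). Its levels were 9.65 and 9.67 without overload, 9.72 and 9.72 at 3 d, and 10.04 and 9.95 at 10 d. In inhibited muscle they were 9.56 and 9.71 at 3 d and 9.78 and 9.69 at 10 d. Both 10 d overload pools stood above every other pool, and the remaining 8 pools lay within 9.56 to 9.78. The change at 10 d against no overload was 0.33 ± 0.13 (1.26-fold higher, limma, adjusted p = 0.184).

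Esam, an immunoglobulin-type adhesion molecule of endothelial tight junctions (probe set 17516074), varied least. Its levels were 5.16 and 5.03 without overload, 5.05 and 5.20 at 3 d, and 5.13 and 5.17 at 10 d. The inhibitor pools were at 5.15 and 5.23 at 3 d and 5.15 and 4.98 at 10 d. All neighbouring groups overlapped in the order of their means. The group means spanned 0.12 log2 units, the 1.5th percentile of all genes, where the median gene spanned 0.48.

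Cldn5 encodes claudin 5, the main claudin of endothelial tight junctions (probe set 17323755). Its levels were 3.45 and 3.55 without overload, 3.60 and 3.35 at 3 d, and 4.46 and 4.13 at 10 d. With the inhibitor they were 3.80 and 3.56 at 3 d and 3.87 and 3.34 at 10 d. The 10 d overload pools lay above all the others, and below them each group overlapped its neighbour in the order of means. The group means spanned 0.82 log2 units (1.77-fold), the 79.5th percentile of all genes. These levels lie low on a scale that ran from -0.45 to 12.71 on these arrays, where RMA compresses differences. Among all genes the mean level of Cldn5 was at the 54.8th percentile. The change at 10 d was 0.79 ± 0.21 against no overload (95% interval 0.31 to 1.27, limma, adjusted p = 0.0691). Against 3 d of overload the Cldn5 change was 0.82 ± 0.21 (95% interval 0.34 to 1.30, limma, adjusted p = 0.0586). Neither passed the threshold, although without either pool of the 10 d inhibitor group the change from 3 d to 10 d passed it (adjusted p = 0.0487).

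**Figure D1:**
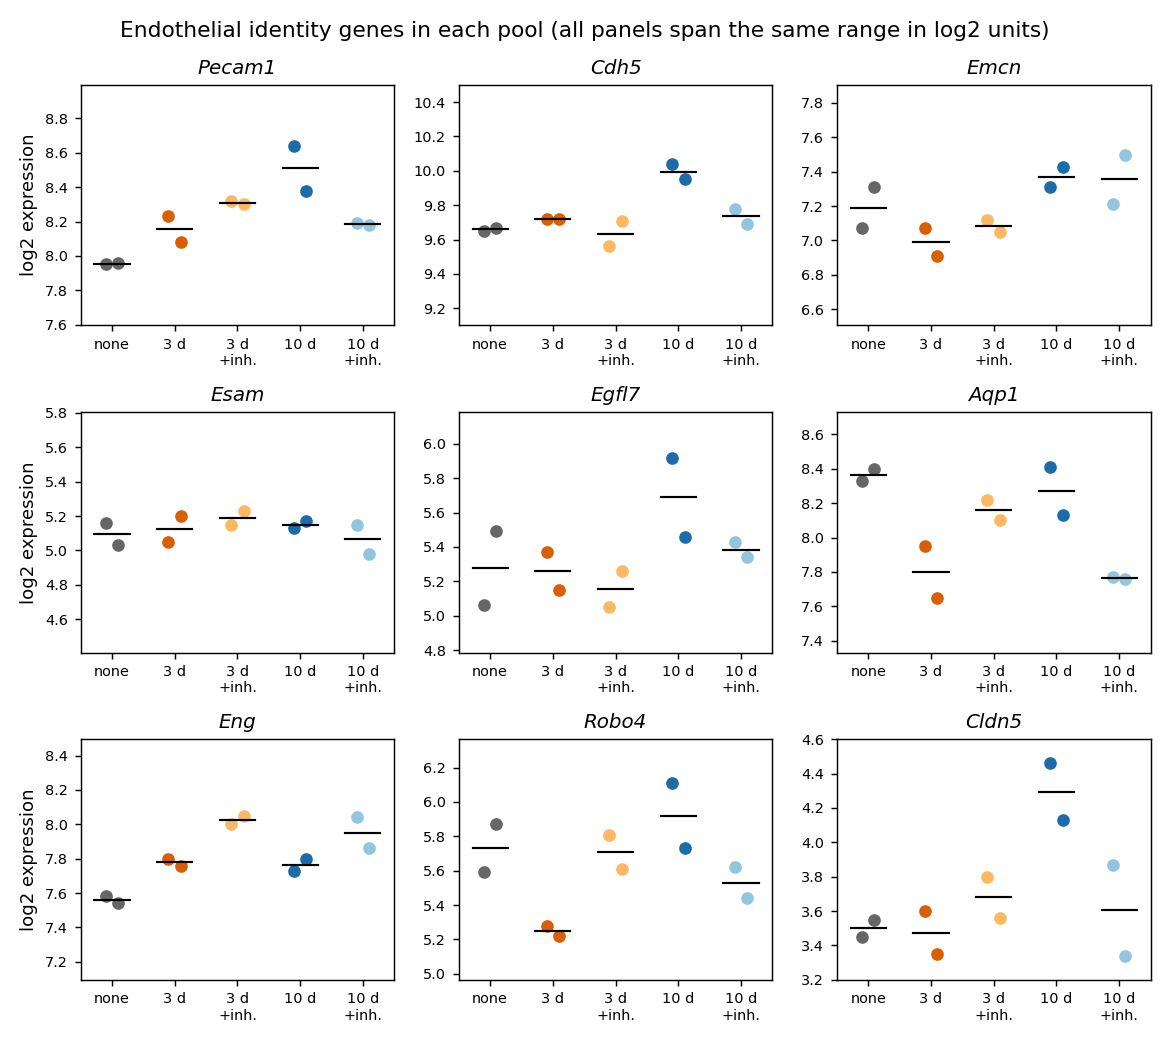
Log2 expression level (vertical axis, the same span but a separate range in each panel) of the 9 endothelial identity genes in the 5 groups (horizontal axis), where each point is 1 pool of RNA from 4 muscles and each bar is the mean of 2 pools. "+inh." marks the PDGF inhibitor. The 10 d overload pools of Pecam1, Cdh5 and Cldn5 lie above all other pools, the Aqp1 pools of 3 d overload (7.95 and 7.65) and 10 d with inhibitor (7.77 and 7.76) lie lowest, and the Esam pools stay between 4.98 and 5.23.

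Emcn encodes endomucin, a mucin-like surface protein of capillaries and veins (probe set 17402981). Its levels were 7.07 and 7.31 without overload, 7.07 and 6.91 at 3 d, and 7.31 and 7.43 at 10 d. The inhibitor groups had levels of 7.12 and 7.05 at 3 d and 7.21 and 7.50 at 10 d. Neighbouring groups overlapped throughout the order of means, which ran from 6.99 at 3 d to 7.37 at 10 d. The change from 3 d to 10 d was 0.38 ± 0.16 (limma, adjusted p = 0.211).

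Egfl7 encodes a secreted protein that endothelial cells lay down around themselves (probe set 17368330). Its levels were 5.06 and 5.49 without overload, 5.37 and 5.15 at 3 d, and 5.92 and 5.46 at 10 d. In inhibited muscle they were 5.05 and 5.26 at 3 d and 5.43 and 5.34 at 10 d. The higher 10 d pool exceeded its partner by as much as the groups differed, and the mean at 10 d was 5.69 ± 0.33 (SD, n = 2). The change against no overload was 0.42 ± 0.21 (limma, adjusted p = 0.303).

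Aqp1 encodes aquaporin 1, the water channel of capillary endothelium (probe set 17458813). Its levels were 8.33 and 8.40 without overload and 7.95 and 7.65 at 3 d. It was the only member called at 3 d, and it fell by 0.56 ± 0.16 on the log2 scale (1.48-fold lower, 95% interval -0.92 to -0.21, limma, adjusted p = 0.0391). At 10 d the levels were 8.41 and 8.13 and overlapped those without overload. The inhibitor pools were at 8.22 and 8.10 at 3 d and 7.77 and 7.76 at 10 d. Aqp1 had its lowest levels in uninhibited muscle at 3 d and in inhibited muscle at 10 d. The 10 d inhibitor group differed from no overload by -0.60 ± 0.16 and missed the threshold (limma, adjusted p = 0.108).

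The Aqp1 call at 3 d depended on single arrays. It was kept in 2 of the 10 fits that omitted 1 array, both without a 10 d overload pool, and the adjusted p ranged from 0.0361 to 0.203. Without the first 3 d pool, which held the immune precursor signal, the change was -0.71 (limma, adjusted p = 0.0502), and without the second it was -0.42 (limma, adjusted p = 0.203). Fitted on the 3 d and no overload arrays alone, the adjusted p was 0.0952.

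Eng encodes endoglin, a co-receptor for BMP9, BMP10 and TGF-beta (probe set 17369925). Its levels were 7.58 and 7.54 without overload, 7.80 and 7.76 at 3 d, and 7.73 and 7.80 at 10 d. With the inhibitor they were 8.0 and 8.05 at 3 d and 8.04 and 7.86 at 10 d. Both inhibitor groups lay above both overload groups, and these lay above the pools without overload. Eng was called in inhibited muscle at 3 d against no overload, where it rose by 0.46 ± 0.13 (1.38-fold higher, 95% interval 0.17 to 0.75, limma, adjusted p = 0.0431). That call was lost in all 10 fits that omitted 1 array (adjusted p 0.0543 to 0.153) and in the fit on those groups alone (0.115). It was also lost with arrays brought to a common median over genes, where the change was 0.34 (limma, adjusted p = 0.132).

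Robo4 encodes an endothelial receptor of the roundabout family that stabilises vessels (probe set 17516047). Its levels were 5.59 and 5.87 without overload, 5.28 and 5.22 at 3 d, and 6.11 and 5.73 at 10 d. In inhibited muscle they were 5.81 and 5.61 at 3 d and 5.62 and 5.44 at 10 d. The 3 d overload pools lay below all the others. The change at 3 d was -0.48 ± 0.18 (limma, adjusted p = 0.106). It passed the threshold with dim genes left out (0.0483) and with arrays at a common median over genes, where it was -0.67 (limma, adjusted p = 0.0377). From 3 d to 10 d the Robo4 change was 0.67 ± 0.18 (1.59-fold higher, 95% interval 0.27 to 1.08, limma, adjusted p = 0.0636).

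Taken by comparison, 1 of the 9 genes was called at 3 d against no overload, when 17.5% of all genes were called, and 8.18% were called lower. The median change of the 9 was -0.01 and that of all genes -0.04. The signs were mixed, from -0.56 for Aqp1 to 0.22 for Eng. The small positive changes of Cdh5 (0.06) and Esam (0.03) turned negative with arrays at a common median over genes (-0.13 and -0.16). Without the second 3 d pool the changes of Cldn5 (-0.03), Egfl7 (-0.01) and Esam took the opposite sign (0.10, 0.10 and -0.04). The median level over genes was 0.19 higher at 3 d and 0.17 higher at 10 d than without overload.

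At 10 d against no overload 0 of the 9 were called by limma, when 5.13% of all genes were called, and 3 of the 9 had an unadjusted p under 0.05, against 20.3% of all genes. Changes were positive for 8 of the 9, from 0.06 for Esam, whose sign turned with arrays at a common median over genes (-0.11), to 0.79 for Cldn5. The exception was Aqp1 at -0.10. The 10 d pools lay apart and higher for 5 genes, namely Pecam1, Cdh5, Emcn, Eng and Cldn5, against 22.1% of all genes. The gap for Emcn was smaller than the precision given here, with nearest pools of 7.31 and 7.31. With dim genes left out Pecam1 (limma, adjusted p = 0.0183) and Cldn5 (0.0321) passed the threshold. With 1 array omitted the change ranged from 0.43 to 0.69 for Pecam1 and from 0.63 to 0.96 for Cldn5. The median change was 0.20, and that of all genes -0.04. The upper 95% bounds allowed a rise of up to 1.83-fold for Pecam1 and 2.41-fold for Cldn5.

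At 10 d against 3 d of overload 0 of the 9 were called by limma, when 6.08% of all genes were called. Of the 9, 5 had an unadjusted p under 0.05, against 20.7% of all genes. The pools of 7 genes lay apart and higher at 10 d, against 24.6% of all genes, and the exceptions were Esam and Eng. With dim genes left out Robo4 (limma, adjusted p = 0.0259) and Cldn5 (0.0260) passed the threshold. The median change was 0.38, and that of all genes 0.01. Without the first 3 d pool, which held the immune precursor signal, the Eng change of -0.02 became 0.00 and the Esam change of 0.03 became -0.05. This comparison shares the 10 d overload pools with the preceding one. The first 10 d pool was the higher one for Pecam1, Cdh5, Egfl7, Aqp1, Robo4 and Cldn5. Without it the Cldn5 change was 0.65 (limma, adjusted p = 0.250) and the Robo4 change 0.48 (limma, adjusted p = 0.271).

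**Figure D2:**
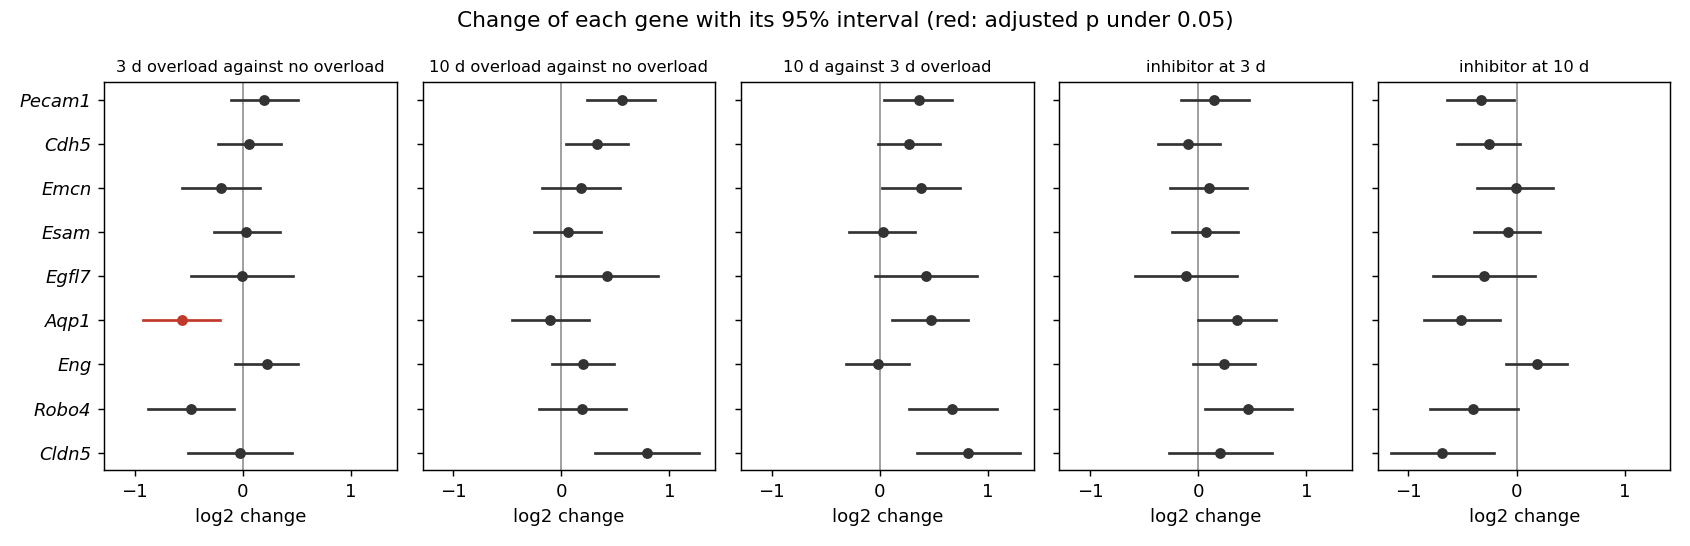
Log2 change of each endothelial identity gene (rows) in the comparisons between groups (panels), with points for the fitted difference and bars for its 95% interval from limma and red for an adjusted p under 0.05. At 3 d against no overload the Aqp1 (-0.92 to -0.21) and Robo4 (-0.88 to -0.08) intervals lie below 0. At 10 d against no overload the Pecam1 (0.24 to 0.87), Cdh5 (0.04 to 0.62) and Cldn5 (0.31 to 1.27) intervals lie above 0. With the inhibitor at 10 d most points lie below 0.

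The inhibitor comparisons asked whether blocking PDGF signalling altered these genes in overloaded muscle. At 3 d 0 of the 9 were called by limma, and 0% of all genes were, although 9.07% of all genes (2011) had an unadjusted p under 0.05. The inhibitor pools lay apart and higher for Pecam1, Aqp1, Eng and Robo4 (22.3% of all genes) and apart and lower for Cdh5 (17.7% of all genes), where the nearest pools were 9.72 and 9.71. The changes ran from -0.11 for Egfl7 to 0.46 ± 0.18 for Robo4 (95% interval 0.06 to 0.87, limma, adjusted p = 0.497). Aqp1 changed by 0.36 ± 0.16 (limma, adjusted p = 0.548).

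At 10 d the inhibitor values were lower for 8 of the 9 genes, and 0 were called by limma, when 0.104% of all genes (23) were called and 10.6% had an unadjusted p under 0.05. With arrays at a common median over genes the Emcn change, -0.01, became 0.07. The inhibitor pools lay apart and lower for 6 genes, namely Pecam1, Cdh5, Egfl7, Aqp1, Robo4 and Cldn5, against 19.5% of all genes. The largest changes were -0.69 ± 0.21 for Cldn5 (95% interval -1.16 to -0.21, limma, adjusted p = 0.284) and -0.51 ± 0.16 for Aqp1 (95% interval -0.86 to -0.15, limma, adjusted p = 0.288). Pecam1 differed by -0.33 ± 0.14 (limma, adjusted p = 0.443). Eng went the other way, at 0.19 ± 0.13 (limma, adjusted p = 0.672), and lay apart and higher, as did 21.6% of all genes. The median change of the 9 was -0.30, and that of all genes 0.01. The 10 d overload pools serve here as the reference, and they also gave the higher values in the comparisons with no overload and with 3 d. Markers of other cells moved with the inhibitor at 10 d as well. The neutrophil list score was -1.18 and -1.22 in the 10 d overload pools and 1.39 and 0.75 in the 10 d inhibitor pools, all 8 markers were higher (median 2.25), and Csf3r was called (1.23 ± 0.13, limma, adjusted p = 0.0256). The platelet score was -0.44 and -0.42 in the overload pools and 1.37 and 0.37 in the inhibitor pools, with all 8 measured markers higher and 0 called by limma. The 3 measured red cell markers were dim and all higher (median 0.58), with 0 called by limma. Their score was -0.19 and -0.24 in the overload pools and 0.41 and 0.33 in the inhibitor pools. All 7 measured markers of dividing cells were lower (median -1.34), of which Top2a was called (-1.62 ± 0.19, limma, adjusted p = 0.0371). All 9 fibroblast markers were lower (median -0.81), as were 10 of 12 pericyte and smooth muscle markers (median -0.23) and 9 of 10 macrophage markers (median -0.55), with 0 called by limma in these lists. The part of these cells in the 9 genes was not tested.

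Averaged over both times, 0 of the 9 were called by limma, when 0.289% of all genes were called and 12.7% had an unadjusted p under 0.05. Among the 9 genes only Eng had one. Eng differed by 0.21 ± 0.09 (95% interval 0.01 to 0.42, limma, adjusted p = 0.373) and was apart and higher with the inhibitor at both times. For the other 8 genes the averaged changes ran from -0.24 for Cldn5 to 0.04 for Emcn.

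The inhibitor changes at 10 d were more negative than those at 3 d for all 9 genes. The difference was -0.89 ± 0.30 for Cldn5, -0.86 ± 0.22 for Aqp1, -0.86 ± 0.25 for Robo4 and -0.48 ± 0.19 for Pecam1. The lowest adjusted p of these tests of the difference was 0.613, for Aqp1, and 0 of the 9 and 0% of all genes were called by limma. An unadjusted p under 0.05 was found for 6.47% of all genes (1434) and for these 4 members. For Aqp1 and Robo4 the 95% intervals were -1.37 to -0.36 and -1.43 to -0.29.

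**Figure D3:**
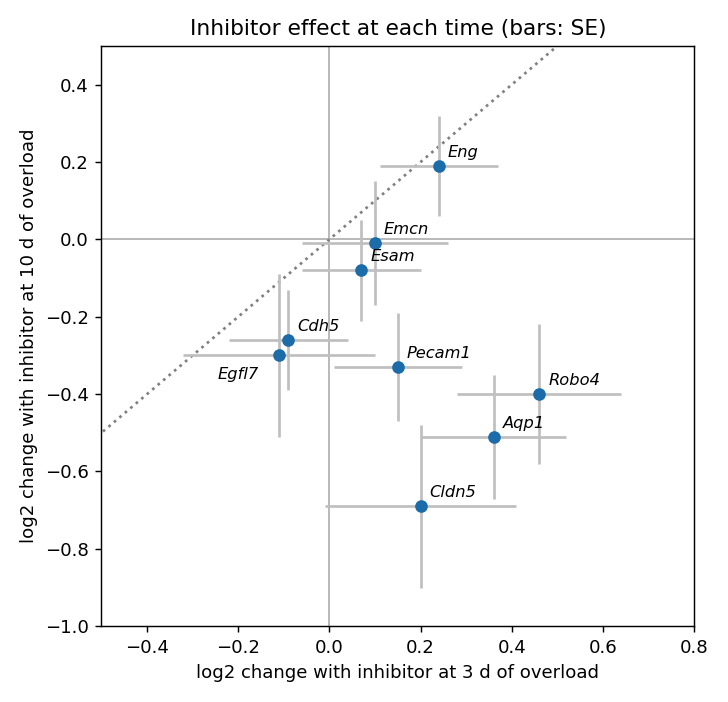
Log2 change with the PDGF inhibitor at 3 d (horizontal axis) and at 10 d (vertical axis) of overload for the 9 endothelial identity genes, with bars for the standard error from limma and a dotted line where both changes are equal. Aqp1 (0.36 and -0.51), Robo4 (0.46 and -0.40) and Pecam1 (0.15 and -0.33) lie in the lower right. So do Cldn5 (0.20 and -0.69), Emcn (0.10 and -0.01) and Esam (0.07 and -0.08). Eng (0.24 and 0.19) lies in the upper right, and Cdh5 and Egfl7 lie in the lower left.

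Inhibited muscle was also set against muscle without overload. At 3 d with the inhibitor 1 of the 9 genes was called, Eng, when 14.2% of all genes were called and 7.71% were called higher. Pecam1 changed by 0.35 ± 0.14 there (limma, adjusted p = 0.138). At 10 d with the inhibitor 0 of the 9 were called by limma, when 1.56% of all genes were called and 15.1% had an unadjusted p under 0.05. Eng differed by 0.39 ± 0.13 (limma, adjusted p = 0.191), and Cldn5 by 0.11 ± 0.21 (limma, adjusted p = 0.872). For Cldn5 the 95% interval of that difference ran from -0.37 to 0.59.

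The 9 genes did not follow a single profile across the 10 arrays. Of their 36 pairs, 10 had a Pearson r over 0.5 and 7 had an r below 0, and the median r was 0.31. These correlations describe 10 arrays that share groups, so group differences and array scaling enter all of them. The closest partners were Cdh5 and Egfl7 (r = 0.84), Pecam1 and Cldn5 (0.83), and Aqp1 and Robo4 (0.80). The most opposed were Emcn and Esam (-0.56) and Aqp1 and Eng (-0.46). The mean of the 9 genes, each centred on its own mean over the arrays, was 0.32 and 0.14 in the 10 d overload pools and between -0.20 and 0.02 in the other 8 pools.

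Among 6526 other genes of sufficient level and range, the 8 with the profile most like that mean were Ctnnbip1 (r = 0.92), Ehd2 (0.92), Plscr3 (0.91), Wdr54 (0.90), Plekha4 (0.85), Tlcd2 (0.84), Pear1 (0.84) and Prkd2 (0.83). Ctnnbip1 encodes an inhibitor of the binding of beta-catenin to TCF factors. Its levels were 5.41 and 5.22 in the 10 d overload pools and between 4.64 and 4.97 in all others. Ehd2, which encodes a membrane protein of caveolae, was at 8.30 and 8.26 in the 10 d overload pools and at or below 8.03 elsewhere.

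Other endothelial genes were examined in lists that did not include the 9. Of 24 endothelial surface and signalling genes, 8 fell and 1 rose at 3 d against no overload, when 8.18% of all genes were called lower and 9.31% higher. The median change of the list was -0.33, and that of all genes -0.04. The receptor tyrosine kinase gene Tie1 was at 6.09 and 6.04 without overload, 5.50 and 5.12 at 3 d and 6.42 and 6.29 at 10 d. It fell by 0.76 ± 0.20 at 3 d (limma, adjusted p = 0.0345). Ushbp1 fell by 1.04 ± 0.29 (adjusted p = 0.0380), Tmem204 by 0.84 ± 0.20 (adjusted p = 0.0226) and Clec14a by 0.76 ± 0.17 (adjusted p = 0.0174). The gene that rose was Cd34, by 0.64 ± 0.13 (limma, adjusted p = 0.00893), which is also made by connective tissue progenitors.

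Those counts depended on the arrays fitted. Fewer genes of the surface list were called at 3 d with any pool of the compared groups omitted. Fewer of all genes were also called at 3 d with any array omitted. Whether the list lost more of its calls than all genes did was not tested. From 3 d to 10 d, 4 of the 24 rose and 0 fell, when 2.70% of all genes were called higher and 3.38% lower. They were Ushbp1 (1.23 ± 0.29), Tie1 (1.05 ± 0.20), Clec14a (0.96 ± 0.17) and Myct1 (0.52 ± 0.12). These 4 were also among the genes called lower at 3 d, a comparison that uses the same 3 d pools, so the counts are not independent. With any array omitted fewer of the surface list were called in this comparison, and fewer of all genes were as well. At 10 d against no overload Cd34 was the only gene of the list called, at 0.86 ± 0.13 (limma, adjusted p = 0.00937), when 3.90% of all genes were called higher and 1.23% lower. The count of the surface list at 10 d also changed with some arrays omitted, as did that of all genes called.

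Of 16 endothelial transcription factors, 3 fell and 1 rose at 3 d, and the median change was -0.01. The called share was 25.0%, beside 17.5% of all genes. The largest changes were those of Tcf15, at -1.37 ± 0.27, Elk3, at 0.69 ± 0.15, and Sox18, at -0.64 ± 0.15. Sox18, a SOX factor of vessel development, was at 5.47 and 5.54 without overload, 4.68 and 5.05 at 3 d and 5.55 and 5.69 at 10 d. It was the only one called from 3 d to 10 d (0.75 ± 0.15, limma, adjusted p = 0.0259). That is a share of 6.25%, near the 6.08% of all genes called. The Sox18 call was lost with some arrays omitted, when fewer of all genes were called as well. At 10 d against no overload 0 of the 16 were called by limma, when 5.13% of all genes were called, and the median change was 0.03.

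The capillary list had 10 genes, of which 6 fell and 1 rose at 3 d, and its median change was -0.74. The called share was 70.0% at 3 d and 20.0% at 10 d, beside 17.5% and 5.13% of all genes. Lpl, the lipase that works on the capillary wall, was at 10.24 and 10.31 without overload, 8.62 and 8.79 at 3 d and 9.50 and 9.22 at 10 d. It fell by 1.58 ± 0.15 at 3 d (2.98-fold lower, limma, adjusted p = 0.000352) and by 0.92 ± 0.15 at 10 d (limma, adjusted p = 0.0133). Car4, a carbonic anhydrase of the capillary surface, fell by 1.40 ± 0.23 at 3 d. Muscle fibres and fat cells make Lpl as well. Rgcc, a cell cycle regulator, rose by 2.41 ± 0.24 at 3 d (5.32-fold higher) and by 1.0 ± 0.24 at 10 d. At 10 d only Rgcc and Lpl of the list were called, and the median change was -0.37. With some arrays omitted 1 or both of these calls at 10 d were lost, and the count of all genes called changed as well.

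Of 11 genes of veins and activated endothelium, 5 rose and 1 fell at 3 d, and 3 rose at 10 d, with median changes of 0.47 and 0.27. The called share was 54.5% at 3 d and 27.3% at 10 d, beside 17.5% and 5.13% of all genes. Selp, which encodes P-selectin, the leukocyte-catching receptor of activated endothelium and platelets, was at 3.68 and 3.06 without overload, 5.55 and 5.97 at 3 d and 4.78 and 5.05 at 10 d. It rose by 2.39 ± 0.23 at 3 d (5.24-fold, limma, adjusted p = 0.000379) and by 1.54 ± 0.23 at 10 d (limma, adjusted p = 0.00941). Sele, E-selectin, rose by 1.24 ± 0.24 at 3 d, as did Csf2rb, a cytokine receptor subunit also of myeloid cells, by 1.41 ± 0.24. The diaphragm gene of fenestrae and caveolae, Plvap, rose by 1.18 ± 0.15 at 10 d and the adhesion gene Vcam1 by 1.08 ± 0.25. The gene that fell at 3 d was Nr2f2, a venous identity factor, at -0.63 ± 0.16.

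Of 11 sprouting tip genes, 4 rose and 1 fell at 3 d, and 3 rose at 10 d, with median changes of 0.47 and 0.45. The called share was 45.5% at 3 d and 27.3% at 10 d, beside the same 17.5% and 5.13% of all genes. The largest at 3 d were Plaur (1.60 ± 0.30), Apln (1.34 ± 0.18) and Cxcr4 (1.30 ± 0.22), the first and the last of which leukocytes also make. At 10 d they were Nid2 (1.13 ± 0.14), Apln (0.94 ± 0.18) and Mcam (0.69 ± 0.16). Apln, the ligand of the apelin receptor, was at 2.55 and 2.44 without overload, 3.96 and 3.72 at 3 d and 3.25 and 3.62 at 10 d. The gene that fell at 3 d, the Notch ligand Dll4 (-0.90 ± 0.20), was also the only one of 12 arterial genes called there (8.33%, below the 17.5% of all genes), and the arterial median was -0.15 at 3 d and 0.15 at 10 d. Of 7 measured lymphatic genes, Pdpn (1.84 ± 0.23) and Lyve1 (1.40 ± 0.13) rose at 3 d, and Pdpn rose at 10 d (1.11 ± 0.23), shares of 28.6% and 14.3%. Fibroblasts make Pdpn and tissue macrophages make Lyve1. Tcf15 sits in both the transcription factor and the capillary list, and Dll4 in both the arterial and the tip list. Mcam is in the tip list, among the relatives below and among the pericyte and smooth muscle markers, where it was the only one called at 10 d. Other genes are shared between lists as well, such as Sox17 and Vwf, which were not called at 3 d or 10 d against no overload. In some fits with 1 array omitted, fewer genes of the transcription factor, capillary, venous and tip lists were called at 3 d. At 10 d fewer venous and tip genes were called in every such fit, and the lymphatic call was lost in most. Fewer of all genes were also called at 3 d in every such fit, and their count at 10 d changed as well. When the 10 d and no overload arrays were fitted alone, 0 genes of any of these lists were called by limma at 10 d. That fit called only 31 of all genes, against 1138 in the fit on all arrays, so the 0 does not set these lists apart.

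**Figure D4:**
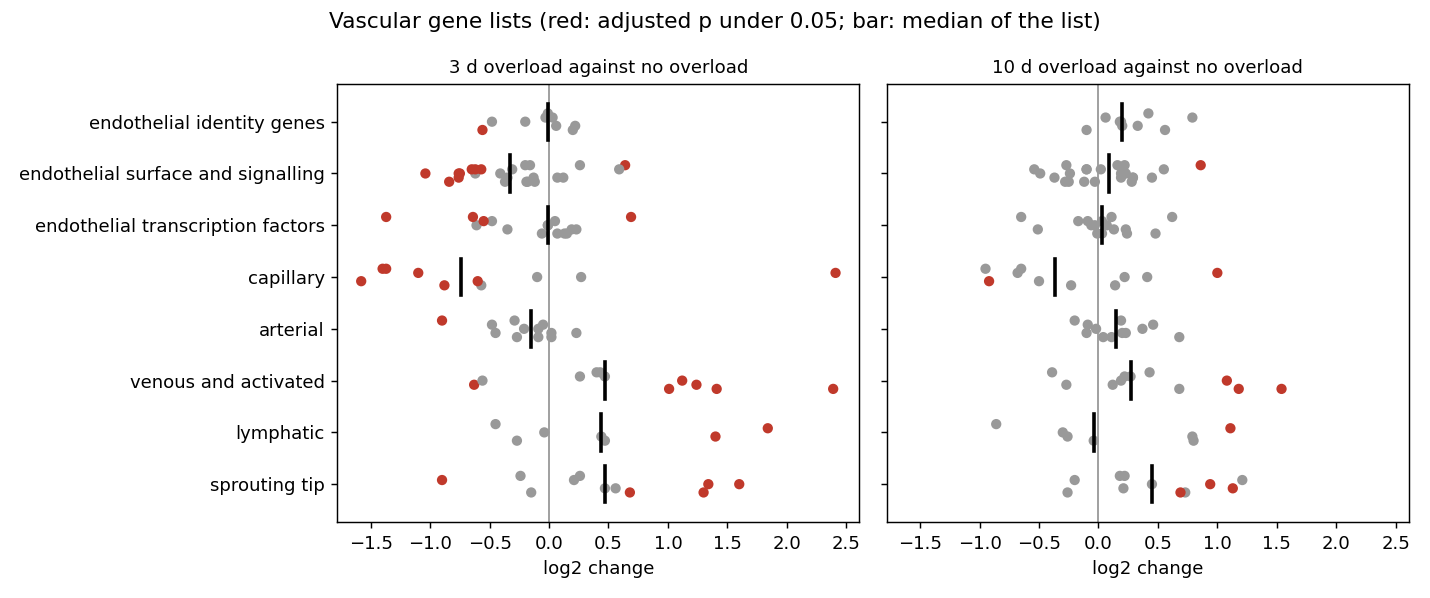
Log2 changes of the single genes (points) of the endothelial identity genes and of the other vascular lists (rows) against no overload, with a panel for 3 d and a panel for 10 d of overload. Red points are genes called at an adjusted p under 0.05, and the vertical bar is the list median. At 3 d the capillary median (-0.74) lies lowest, the medians of the venous and tip lists (both 0.47) lie highest, and the endothelial identity genes lie near 0 (-0.01).

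None of these vascular genes was called by limma in a comparison of inhibitor with no inhibitor at the same time of overload. Of all genes, 0% were called there at 3 d and 0.104% at 10 d. With the inhibitor at 3 d the list medians ran from -0.10 for the lymphatic genes to 0.21 for the capillary and the venous genes. In the surface list 22 of 24 values were positive, and its median was 0.20. With the inhibitor at 10 d the tip list had the lowest median, -0.45, with 9 of 11 values negative, and the surface list was at -0.00 with 12 values of each sign.

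Partners of the 9 genes were followed in lists of their own. For the junction proteins Cdh5 and Cldn5, 13 catenins and junction partners were measured. At 3 d the tricellular junction gene Marveld2 rose by 1.55 ± 0.31, and the occludin gene Ocln and Jam2 fell by 0.98 ± 0.24 and 0.57 ± 0.14. These 3 were 23.1% of the list, near the 17.5% of all genes called. Ocln was dim in both groups, at 2.30 and 2.16 without overload and 1.22 and 1.27 at 3 d. Marveld2 was dim without overload, at 2.49 and 1.88, and at 3.45 and 4.01 at 3 d. The median of the gene means was 3.13. None of the 13 was called by limma at 10 d against no overload, when 5.13% of all genes were called. The list medians were -0.19 at 3 d and 0.05 at 10 d. Among 7 measured relatives of Cldn5, Esam and Emcn, Cldn1 fell by 1.36 ± 0.31 at 3 d and Mcam rose by 0.68 ± 0.16, a share of 28.6% beside 17.5% of all genes, with a list median of -0.00. Of the relatives of Egfl7 only Egfl8 was measured, and it was not called, at -0.19 at 3 d and -0.36 at 10 d.

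Of 14 genes of the endoglin pathway, which carries BMP and TGF-beta signals, 3 rose at 3 d and 2 at 10 d, 0 fell, and the list medians were 0.19 and 0.22. The called share at 3 d, 21.4%, was near the 17.5% of all genes, and at 10 d it was 14.3% beside 5.13%. At 3 d they were the target gene Id2 (1.43 ± 0.24) and the signal transducers Smad5 (1.24 ± 0.16) and Smad1 (1.05 ± 0.19). At 10 d they were Id2 (1.10 ± 0.24) and the receptor gene Tgfbr2 (0.93 ± 0.20). All of them are also made outside the endothelium. In inhibited muscle at 3 d, 4 of the 14 were called higher against no overload. This was 28.6% of the list, when 14.2% of all genes were called and 7.71% were called higher. They were Id1 (1.21 ± 0.34), Id2 (1.13 ± 0.24), Smad5 (1.03 ± 0.16) and Smad1 (0.77 ± 0.19). Id2, Smad5 and Smad1 were also called at 3 d without the inhibitor.

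Beside Aqp1, 7 other aquaporins were measured. Aqp4, the water channel of the fast muscle fibre membrane, was at 6.28 and 6.14 without overload, 3.32 and 4.05 at 3 d and 5.93 and 5.71 at 10 d. It fell by 2.52 ± 0.24 at 3 d (5.74-fold lower, limma, adjusted p = 0.000351) and rose by 2.13 ± 0.24 from 3 d to 10 d. Aqp7, a glycerol channel of fat cells and capillaries, fell by 0.81 ± 0.18 at 3 d, and the called share was 28.6% beside 17.5% of all genes. The median of the 7 was -0.10 at 3 d and 0.09 at 10 d. Of 7 genes of Robo receptors and their Slit ligands and partners, Slit3 rose by 0.77 ± 0.19 at 3 d and by 0.85 ± 0.19 at 10 d, and the other 6 were not called at either time, a share of 14.3% beside 17.5% of all genes at 3 d and 5.13% at 10 d. The list medians were 0.13 at 3 d and 0.24 at 10 d.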

How the data were processed

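RNA of 10 pooled plantaris samples was measured on Affymetrix Mouse Gene 2.1 ST arrays. The deposited values are log2 expression levels, 1 table of 41345 probe sets, with the log2 scale read from their range. The submitters' processing notes name limma, oligo and RMA, with no version for any. RMA removes background, makes array distributions alike and summarises probes by median polish, so it compresses differences of dim genes and loses a shift shared by most genes. For the array annotation, the genome build is not given in the sources used.

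A symbol alone was carried by 23521 probe sets, several by 1814 and none by 16010. The brightest probe set was kept for the 1082 genes that had more than 1, leaving 22180 genes. The linear model of limma 3.58.1 (R 4.3.3) had a coefficient for every group, no filter on dim genes and empirical Bayes moderation (5 residual and 3.58 prior degrees of freedom, prior SD 0.18). It was tested on simulated data. Calls used Benjamini-Hochberg adjustment over all genes and a threshold of 0.05. Pools are numbered as names only. Nothing in the labels says that the pools of a group came from separate animals. The p-values therefore measure the spread between these pools alone, which may be technical, and the number of arrays limits the precision.

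The members and the gene lists were chosen with earlier results of these data known. All 9 members are named in every comparison. From each list the called genes with the 3 largest changes at each overload time are named. Further genes, such as Tie1, Myct1 and Nr2f2, were named after their values were seen. The alternatives were other scalings of the arrays, the mean of a gene's probe sets, dim genes left out, a prior variance with an intensity trend, a fit on the compared groups only, and each array left out in turn. Promoter windows came from RefSeq (GRCm38.p6).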

Additional observations from a re-analysis of the deposited data

Results flagged for a closer look

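For 3 of the endothelial identity genes both inhibitor pools lay beyond both overload pools in one direction at 3 d and in the opposite direction at 10 d. The inhibitor change at 10 d minus that at 3 d was -0.48 for Pecam1, -0.86 for Aqp1 and -0.86 for Robo4 on the log2 scale. The test of this difference did not pass in limma for any of them (adjusted p = 0.734, 0.613 and 0.675). Among all genes, the inhibitor pools lay apart and higher for 22.3% and apart and lower for 17.7% at 3 d. At 10 d these shares were 21.6% and 19.5%. The share of all genes apart in opposite directions at 3 d and 10 d was not computed. Whether such a reversal is more frequent among the endothelial identity genes was therefore not tested.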

How the results depend on the processing

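With 10 arrays the 95% intervals of the 9 genes at 10 d against no overload together reached from -0.46 to 1.27 log2 units. No paired analysis was possible because nothing in the labels pairs pools across groups and the pool numbers were given in accession order. Shifting arrays to a common median over all probe sets, or averaging a gene's probe sets, changed no count of members called. The common median over genes was added after seeing the data. In fits that omitted 1 array a lone pool is assumed to vary like the other groups. The cause of each change below was not tested.

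Members called at 3 d against no overload (1) became 2 with the common median over genes, 2 with dim genes left out and 0 with only the compared groups, and 0 to 1 with an array omitted. At 10 d (0) they became 2 with dim genes left out and 2 with the trend prior, and from 3 d to 10 d (0) 2 and 4, with 0 to 1 on omission. For 3 d with inhibitor against no overload (1) they became 0 with the common median over genes, 2 with the trend prior, 0 with only the compared groups and 0 to 0 on omission, and for 10 d with inhibitor (0) 1 with dim genes left out and 2 with the trend prior. The inhibitor comparisons kept 0 members called under every alternative run.

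All genes called are given with dim genes left out, with the trend prior and with only the compared groups. They numbered 1900, 2115 and 31 at 10 d (1138 as reported), 2295, 2458 and 202 from 3 d to 10 d (1348), 48, 161 and 3 for the inhibitor at 10 d (23), and 830, 1068 and 102 for 10 d with inhibitor against no overload (345). The inhibitor gave 4 and 14 at 3 d (0) and 219 and 455 on average (64) with the first pair of settings, and 3 d with inhibitor gave 1933 with the last (3154). With an array omitted they ranged from 2146 to 3850 at 3 d, 259 to 1232 at 10 d, 218 to 1096 from 3 d to 10 d, 0 to 7, 0 to 180 and 0 to 341 for the inhibitor at 3 d, at 10 d and on average, 0 to 14 for its difference between times, and 1343 to 3178 and 31 to 486 for inhibited muscle at 3 d and 10 d against no overload.

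Of 1296 alternative values of single members 45 changed sign, and 0 of these were called. With the common median over genes they were Cdh5 (-0.13) and Esam (-0.16) at 3 d, Esam at 10 d (-0.11), Eng from 3 d to 10 d (0.01), Emcn with the inhibitor at 10 d (0.07), Esam (0.07) and Aqp1 (0.00) for the averaged inhibitor, Esam in 3 d with inhibitor (-0.03) and Cdh5 in 10 d with inhibitor (-0.01). With an array omitted the ranges that crossed 0 were, at 3 d, Esam -0.04 to 0.11, Egfl7 -0.22 to 0.20 and Cldn5 -0.15 to 0.10. At 10 d they were Esam -0.00 to 0.12 and Aqp1 -0.24 to 0.04, and from 3 d to 10 d Esam -0.05 to 0.10 and Eng -0.05 to 0.02. For the inhibitor they were Esam -0.01 to 0.14 at 3 d, Emcn -0.16 to 0.13 and Esam -0.17 to 0.00 at 10 d, and on average Emcn -0.03 to 0.11, Esam -0.05 to 0.03, Aqp1 -0.15 to 0.00 and Robo4 -0.06 to 0.13. For its difference between times they were Emcn -0.25 to 0.03, Egfl7 -0.43 to 0.04 and Eng -0.14 to 0.03. In inhibited muscle against no overload they were Cdh5 -0.10 to 0.05, Emcn -0.22 to 0.02, Egfl7 -0.33 to 0.09 and Robo4 -0.16 to 0.13 at 3 d, and Esam -0.11 to 0.06, Egfl7 -0.10 to 0.33 and Cldn5 -0.16 to 0.37 at 10 d.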
